A study of Mus musculus with 12 samples.

Results

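The 8 genes described here, Il6, Lif, Il11, Il6ra, Il6st, Lifr, Osmr and Lepr, encode interleukin-6 family cytokines and receptor chains of the gp130 type, and were chosen by name from the 22180 genes with a probe set of their own. All 8 were measured, each by 1 probe set that the platform annotation assigns to that gene alone. Expression was profiled on Affymetrix Mouse Gene 2.0 ST arrays, a whole-transcript platform, in fibroblasts sorted from the back skin dermis of mice at postnatal day 2. The labels give 4 sorted populations with 3 biological replicates each: CD26+, which the study treats as papillary fibroblasts (the upper dermis) and describes as also Sca1-, Dlk1+Sca1-, which it treats as reticular fibroblasts (the lower dermis), and Dlk1+Sca1+ and Dlk1-Sca1+, which it treats as pre-adipocytes. No population was treated. The labels give the genotype as wild-type for every sample, whereas the study describes sorting GFP+ cells of PdgfraH2BeGFP mice, in which a nuclear GFP reports the fibroblast receptor gene Pdgfra, so which of the 2 applies to these arrays was not settled.

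Replicate 3 of Dlk1-Sca1+ was left out of the comparisons, so 11 of the 12 arrays were fitted. The study excluded 1 Dlk1-Sca1+ sample, whose number it does not give, for clustering among the Dlk1+Sca1+ samples with raised Dlk1, and replicate 3 was the array of its group that met both conditions (log2 Dlk1 of 8.69, against 8.09 and 8.32). Its values for the 8 genes are given beside those of the other arrays. The arrays held the labelled cells as far as their markers allow: the mean log2 level of 6 fibroblast markers, among them Col1a1, Dcn and Pdgfra, lay between 11.5 and 11.9 on the fitted arrays, Dlk1 between 9.78 and 10.2 in both Dlk1+ populations against 8.09 to 8.69 in CD26+ and Dlk1-Sca1+, and Dpp4, which encodes CD26, between 10.002 and 10.513 in CD26+. The array left out was at 11.6 for the fibroblast markers and 9.37 for Dpp4. Dpp4 was also high in Dlk1-Sca1+ (9.97 and 10.1), and Ly6a, which encodes Sca1, had no probe set of its own, so the Sca1 gate was not checked.

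Cytokines of this family act through receptor complexes that contain gp130, encoded by Il6st. Il6 first binds its own receptor chain, Il6ra, which is also shed from cells in a soluble form, and Il11 binds a chain of its own, whereas Lif and oncostatin M draw in a further signalling chain, Lifr or Osmr, beside gp130. The leptin receptor Lepr is built like gp130 and binds leptin, the hormone made by fat cells. All of these receptors activate Janus kinases and the transcription factor Stat3, whose target Socs3 shuts the signal down, and in skin the family is known from inflammation and wound repair, in which fibroblasts are a source of Il6.

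Promoter windows from RefSeq (GRCm38.p6, the same build as mm10) were found for all 8 genes, 11 windows in all. Each runs from 250 bases before to 50 bases after a start annotated there. For Lifr, Osmr and Lepr, the outermost start implied by the gene coordinates given below lies outside these windows and was not scanned. The windows of Il6 (chr5:30012864-30013163, plus strand) and Osmr (chr15:6874264-6874563, minus strand) are shown because these were a ligand and a receptor chain with large differences between the populations and because both hold a motif. Capitals mark the motif matches.
Il6: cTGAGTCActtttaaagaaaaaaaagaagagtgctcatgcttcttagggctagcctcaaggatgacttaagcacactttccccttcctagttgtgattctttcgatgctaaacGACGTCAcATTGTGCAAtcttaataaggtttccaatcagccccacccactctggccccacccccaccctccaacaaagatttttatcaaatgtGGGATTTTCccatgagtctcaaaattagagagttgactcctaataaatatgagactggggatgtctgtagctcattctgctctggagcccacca
Osmr: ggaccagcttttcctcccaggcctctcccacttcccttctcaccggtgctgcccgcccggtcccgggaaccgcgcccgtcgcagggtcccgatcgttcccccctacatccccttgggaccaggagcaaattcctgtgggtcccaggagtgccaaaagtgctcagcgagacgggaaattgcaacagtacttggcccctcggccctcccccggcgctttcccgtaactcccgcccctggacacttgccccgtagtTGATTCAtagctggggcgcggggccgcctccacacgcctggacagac

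From left to right, the capitals of Il6 are an AP-1 motif (TGANTCA) at bases -249 to -243, a CRE core (GACGTCA) at -137 to -131, a C/EBP motif (TTGCNCAAT, on the minus strand) at -129 to -121 and an NF-kB motif (GGGANTTTC) at -44 to -36, counted from the start. The CRE core and the C/EBP motif lie next to each other without overlap. The capitals of Osmr are an AP-1 motif at bases 4 to 10. An AP-1 motif was also present in the window of Lif (-228 to -222) and in 1 of the 2 windows of Il11 (-98 to -92). On either strand, AP-1 matched in 7.81%, the CRE core in 3.21%, NF-kB in 1.11% and C/EBP in 0.624% of 32851 mouse promoter windows of this length. A STAT motif (TTCNNNGAA, in 8.3% of windows) and the TATAAA form of a TATA box (in 13.6%) matched in none of the 11. Other forms of a TATA box were not scanned, and the window of Il11 at start site 2 holds the letters TATATAA. These are matches of letters and no binding was measured.

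**Figure D1:**
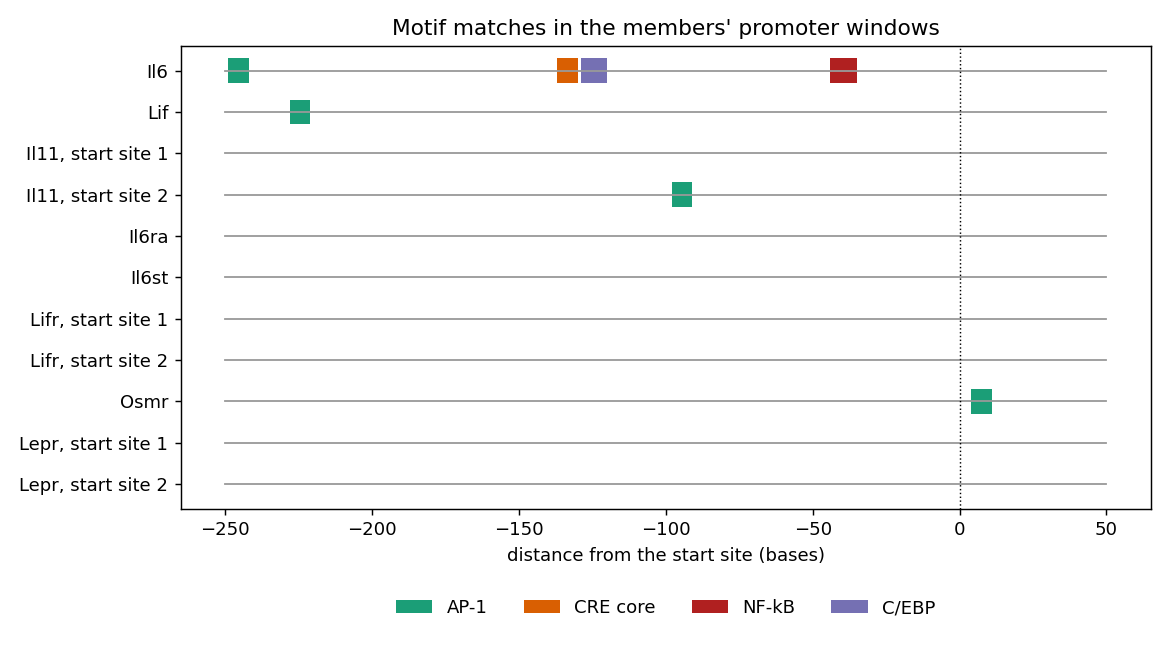
Positions of motif matches (coloured boxes) in the 11 promoter windows of the 8 genes, as distance in bases from the annotated start site (dotted line). The window of Il6 holds 4 kinds of motif, and those of Lif, Il11 (start site 2) and Osmr hold AP-1 alone.

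By number of calls, the family differed most between CD26+ and Dlk1+Sca1+. In that comparison 6 of the 8 genes, Il6, Il6ra, Il6st, Lifr, Osmr and Lepr, were lower in CD26+ at an adjusted p under 0.05 (limma, Benjamini-Hochberg over all genes), where 3.72% of all 22180 genes were called in either direction. The median log2 difference of the 8 genes was -0.86, against -0.01 over all genes, and it was of the same size, 0.86 against 0.00, in Dlk1+Sca1+ against Dlk1+Sca1-. It was -0.48 in CD26+ against Dlk1+Sca1-, -0.64 in Dlk1-Sca1+ against Dlk1+Sca1+, -0.34 in CD26+ against Dlk1-Sca1+ and -0.02 in Dlk1-Sca1+ against Dlk1+Sca1-. Against Dlk1+Sca1-, Il6 and Lepr were higher in Dlk1+Sca1+ (2 of 8, with 1.24% of all genes called) and lower in CD26+ (2 of 8, with 1.10% of all genes called). Dlk1-Sca1+ had lower Il6 and Lifr than Dlk1+Sca1+ (2 of 8, with 1.19% called) and lower Lifr than Dlk1+Sca1- (1 of 8, with 0.591% called), and CD26+ had lower Lepr than Dlk1-Sca1+ (1 of 8, with 0.0857% called). These 6 comparisons share arrays, so they are not independent of each other. By mean level, Dlk1+Sca1+ was highest for 7 of the 8 genes, all but Il11, and CD26+ was lowest for 6, all but Lif and Lifr. The share of all genes with these positions was not counted, here or for the lists below. In sorted but bulk RNA, fewer cells that express a gene and less of its RNA per cell cannot be told apart.

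**Figure D2:**
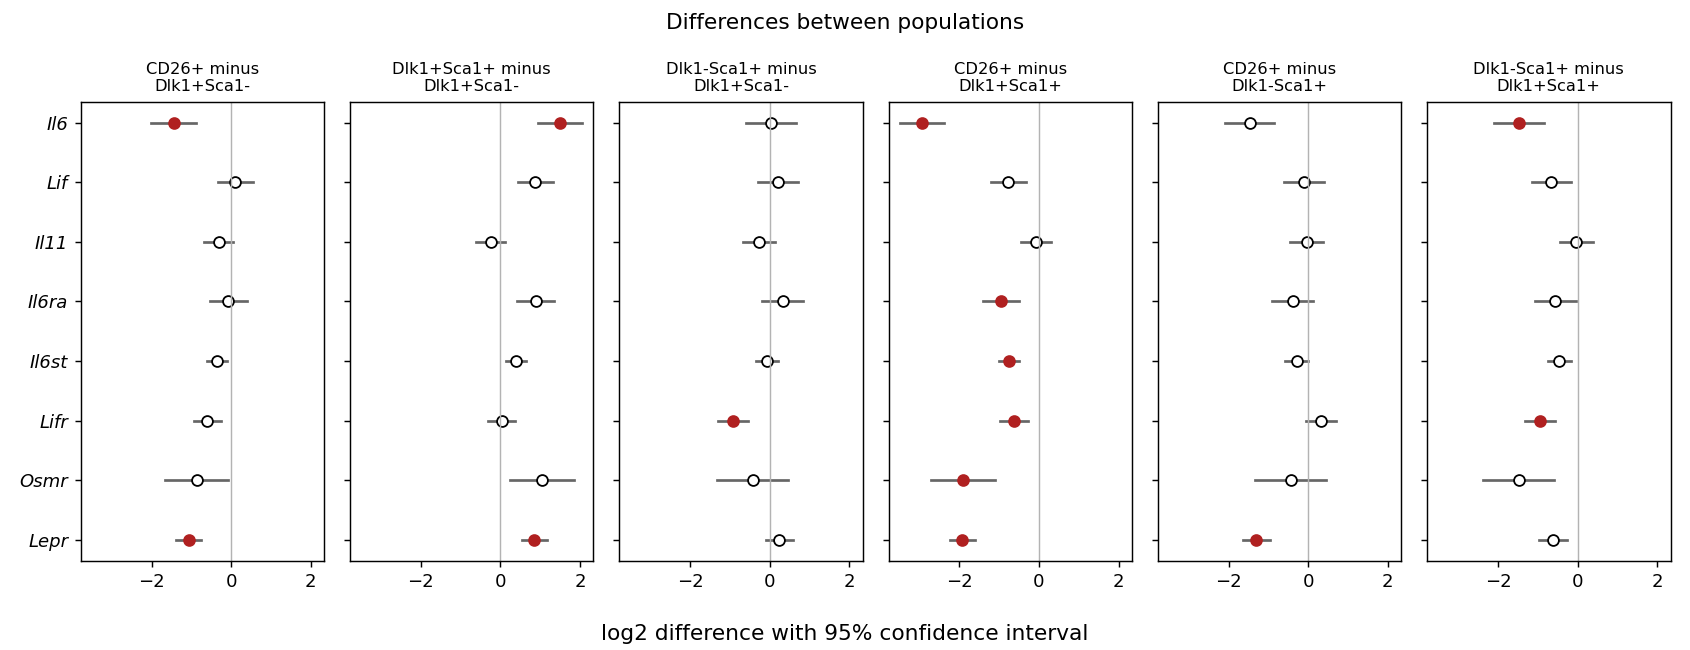
Log2 difference of each gene (horizontal axis, first population minus second) with its 95% confidence interval from limma, for the 6 pairwise comparisons of 4 populations. Filled red points passed an adjusted p of 0.05 and open points did not; the comparison of CD26+ with Dlk1+Sca1+ has 6 filled points, all below 0.

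Il6, on chromosome 5 (30013114 to 30019975), encodes interleukin-6 itself. Its log2 level was 8.78, 9.27 and 8.87 in the Dlk1+Sca1+ replicates 1 to 3, and 5.55, 6.21 and 6.32 in CD26+. Dlk1+Sca1- gave 6.99, 7.58 and 7.85, and Dlk1-Sca1+ gave 7.26 and 7.75 on the fitted arrays and 8.29 on the array left out. Dlk1+Sca1+ was thus the highest population and CD26+ the lowest, with no overlap of either with any other population, while Dlk1+Sca1- and Dlk1-Sca1+ overlapped. The mean was 7.69-fold lower in CD26+ than in Dlk1+Sca1+ (log2 difference -2.94 ± 0.26 (SE), adjusted p = 3.00e-05, limma), the 28th gene of 22180 by p. Dlk1+Sca1+ exceeded Dlk1+Sca1- by 1.50 ± 0.26 (log2, adjusted p = 0.0124, limma), and CD26+ lay below Dlk1+Sca1- by a log2 difference of -1.44 ± 0.26 (adjusted p = 0.0182). The comparison with Dlk1+Sca1- lost its call for Dlk1+Sca1+ without Dlk1+Sca1- replicate 1 or Dlk1+Sca1+ replicate 2 (adjusted p up to 0.0623), and for CD26+ without CD26+ replicate 1 or Dlk1+Sca1- replicate 2 (up to 0.0974) and with only the 2 populations compared fitted (0.0626). 

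Between Dlk1-Sca1+ and Dlk1+Sca1+ the log2 difference of Il6 was -1.47 ± 0.29 (adjusted p = 0.0270, limma). It was -1.21 (adjusted p = 0.101) with all 12 arrays, and the call was lost without any 1 of the 5 arrays of these populations (adjusted p up to 0.233). Between CD26+ and Dlk1-Sca1+ the difference was nearly the same size, -1.47 ± 0.29, but did not pass (adjusted p = 0.121, limma), whereas with all 12 arrays it was -1.74 (adjusted p = 0.0291). Dlk1-Sca1+ and Dlk1+Sca1- differed by 0.03, with a 95% interval from -0.59 to 0.66. Il6 and Lepr are among the genes the study itself names in these populations, so their direction here is not independent evidence.

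Lif, on chromosome 11 (4257568 to 4272514), encodes leukaemia inhibitory factor. Its log2 level was 7.48, 7.65 and 7.09 in Dlk1+Sca1+, 6.75, 6.56 and 6.61 in CD26+, 6.78, 6.47 and 6.36 in Dlk1+Sca1-, and 6.46 and 7.04 in Dlk1-Sca1+, with 7.46 on the array left out. Every fitted array outside Dlk1+Sca1+ lay below its 3 arrays, by 0.05 for the nearest pair. Neither comparison with CD26+ (log2 difference -0.77 ± 0.21, adjusted p = 0.0584, limma) nor that with Dlk1+Sca1- (0.87 ± 0.21, adjusted p = 0.0619) passed over all genes. Both passed after quantile normalisation (adjusted p = 0.0320 and 0.0462). CD26+ and Dlk1+Sca1- differed by 0.10 (95% interval -0.34 to 0.54).

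Il11, on chromosome 7 (4772373 to 4782907), encodes interleukin-11. It was dim on every array, from 4.43 to 5.17, below the array medians of 5.38 to 5.51, where background compresses differences. The 4 populations overlapped, with means from 4.60 in CD26+ to 4.91 in Dlk1+Sca1-, and no comparison was called. The widest difference, between CD26+ and Dlk1+Sca1-, was -0.32 (95% interval -0.68 to 0.05).

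Among the receptor chains, Il6st, the shared gp130 chain (chromosome 13, 112464070 to 112506860), had SDs within populations from 0.05 to 0.18. Its log2 level was 11.310, 11.002 and 11.193 in Dlk1+Sca1+, 10.431, 10.372 and 10.462 in CD26+, 10.955, 10.813 and 10.593 in Dlk1+Sca1-, and 10.625 and 10.800 in Dlk1-Sca1+, with 11.180 on the array left out. CD26+ lay below every other array. The log2 difference between CD26+ and Dlk1+Sca1+ was -0.75 ± 0.12 (adjusted p = 0.00256, limma), a 1.68-fold lower mean, and its call held under all 20 alternatives. The differences between CD26+ and Dlk1+Sca1- (-0.36, 95% interval -0.62 to -0.11), between Dlk1+Sca1+ and Dlk1+Sca1- (0.38, 95% interval 0.13 to 0.63) and between Dlk1-Sca1+ and Dlk1+Sca1+ (-0.46, 95% interval -0.74 to -0.17) did not pass over all genes.

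Il6ra, the chain that binds Il6 (chromosome 3, 89869324 to 89913196), was at a log2 level of 6.23, 6.32 and 7.05 in Dlk1+Sca1+ and 5.50, 5.67 and 5.56 in CD26+. Dlk1+Sca1- gave 5.66, 5.86 and 5.42, and Dlk1-Sca1+ gave 5.88 and 6.07, with 6.21 on the array left out. The 3 Dlk1+Sca1+ arrays lay above all others, and their spread came mostly from replicate 3. CD26+ was lower than Dlk1+Sca1+ by a log2 difference of -0.96 ± 0.21 (adjusted p = 0.0246, limma), a call lost without Dlk1+Sca1+ replicate 3 or without any 1 of the 3 CD26+ arrays (adjusted p up to 0.103) and with only the 2 populations compared fitted (0.0504). Against Dlk1+Sca1- the difference of Dlk1+Sca1+ was 0.89 ± 0.21 and missed the threshold (adjusted p = 0.0686).

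Osmr, the oncostatin M receptor chain (chromosome 15, 6813568 to 6874968), had the widest spread within populations, with SDs from 0.35 to 0.69. Its log2 level was 6.92, 7.59 and 7.48 in Dlk1+Sca1+, 4.85, 6.11 and 5.29 in CD26+, 5.70, 7.05 and 6.11 in Dlk1+Sca1-, and 5.61 and 6.10 in Dlk1-Sca1+, with 6.88 on the array left out. Dlk1+Sca1+ and CD26+ did not overlap, and Dlk1+Sca1- overlapped both. The CD26+ arrays at 4.85 and 5.29 lay below the array medians of 5.38 to 5.51, where background compresses differences. The mean was 3.76-fold lower in CD26+ than in Dlk1+Sca1+ (log2 difference -1.91 ± 0.37, adjusted p = 0.0116, limma), and the call was lost without CD26+ replicate 1 or Dlk1+Sca1+ replicate 3 (adjusted p up to 0.0579). The differences of Dlk1+Sca1+ from Dlk1+Sca1- (1.04 ± 0.37) and of Dlk1-Sca1+ from Dlk1+Sca1+ (-1.47 ± 0.41) did not pass (adjusted p = 0.260 and 0.139). Replicate 1 was the lowest of its population in all 4 populations, for Osmr as for Il6.

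Lifr, the Lif receptor chain (chromosome 15, 7090610 to 7197489), had another order than the other receptors. Its log2 level was 8.45, 8.21 and 8.10 in Dlk1+Sca1+ and 8.20, 8.40 and 8.08 in Dlk1+Sca1-, against 7.65, 7.79 and 7.43 in CD26+ and 7.41 and 7.21 in Dlk1-Sca1+. The array left out was at 7.86. All 6 arrays of the Dlk1+ populations lay above all 5 fitted arrays of the others, and the 2 Dlk1+ populations overlapped, differing by 0.03 (95% interval -0.31 to 0.37). Dlk1-Sca1+ was lower than Dlk1+Sca1+ by a log2 difference of -0.94 ± 0.18 (adjusted p = 0.0218, limma) and lower than Dlk1+Sca1- by -0.92 ± 0.18 (adjusted p = 0.0394). CD26+ was lower than Dlk1+Sca1+ by -0.63 ± 0.16 (adjusted p = 0.0451), while its difference from Dlk1+Sca1- had nearly the same size (-0.60 ± 0.16) and did not pass (adjusted p = 0.108). With all 12 arrays none of the 3 called differences passed, with differences of -0.76, -0.74 and -0.63 and adjusted p of 0.101, 0.117 and 0.0862. Of the 11 fits that leave out 1 array, the call held in 7 for Dlk1-Sca1+ against Dlk1+Sca1+, being lost without Dlk1+Sca1+ replicate 1 or 2 or either Dlk1-Sca1+ array (adjusted p up to 0.198). It held in 3 for Dlk1-Sca1+ against Dlk1+Sca1-, those without Dlk1+Sca1- replicate 3 or Dlk1+Sca1+ replicate 1 or 3 (adjusted p up to 0.279 in the others), and in 2 for CD26+ against Dlk1+Sca1+, those without Dlk1+Sca1- replicate 2 or 3 (adjusted p up to 0.175 in the others). All 3 calls were also lost with only the 2 populations compared fitted. Without trend or robust fitting, those of Dlk1-Sca1+ against Dlk1+Sca1- and of CD26+ against Dlk1+Sca1+ were lost, and with median centring that of Dlk1-Sca1+ against Dlk1+Sca1-.

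Lepr, the leptin receptor (chromosome 4, 101717137 to 101815352), was called in 4 of the 6 comparisons, as was Il6. Its log2 level was 9.79, 9.55 and 9.80 in Dlk1+Sca1+, 9.24 and 8.95 in Dlk1-Sca1+, 8.75, 8.82 and 9.01 in Dlk1+Sca1-, and 7.68, 7.72 and 7.96 in CD26+. The Dlk1-Sca1+ array left out was at 9.99, above every other array. CD26+ lay below all other arrays and Dlk1+Sca1+ above all other fitted arrays, while Dlk1-Sca1+ and Dlk1+Sca1- overlapped. The mean was 3.80-fold lower in CD26+ than in Dlk1+Sca1+ (log2 difference -1.92 ± 0.14, adjusted p = 7.35e-06, limma), the 13th gene by p. It was 2.10-fold lower in CD26+ than in Dlk1+Sca1- (-1.07 ± 0.14, adjusted p = 0.00280), and both calls held under all 20 alternatives.

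The log2 difference of Lepr between CD26+ and Dlk1-Sca1+ was -1.31 ± 0.16 (adjusted p = 0.00826, limma), the 4th gene of that comparison by p, and the call was lost without Dlk1-Sca1+ replicate 1 (adjusted p = 0.0904). Dlk1+Sca1+ exceeded Dlk1+Sca1- by 0.85 ± 0.14 (adjusted p = 0.00993), a call lost with all 12 arrays (adjusted p = 0.0802) and without Dlk1+Sca1- replicate 1 or Dlk1+Sca1+ replicate 3 (up to 0.0567). Between Dlk1-Sca1+ and Dlk1+Sca1+ the difference of -0.62 ± 0.16 did not pass (adjusted p = 0.0949). Lep, which encodes leptin, was at a mean of 4.15 to 4.51 in the 4 populations and was called in no comparison.

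**Figure D3:**
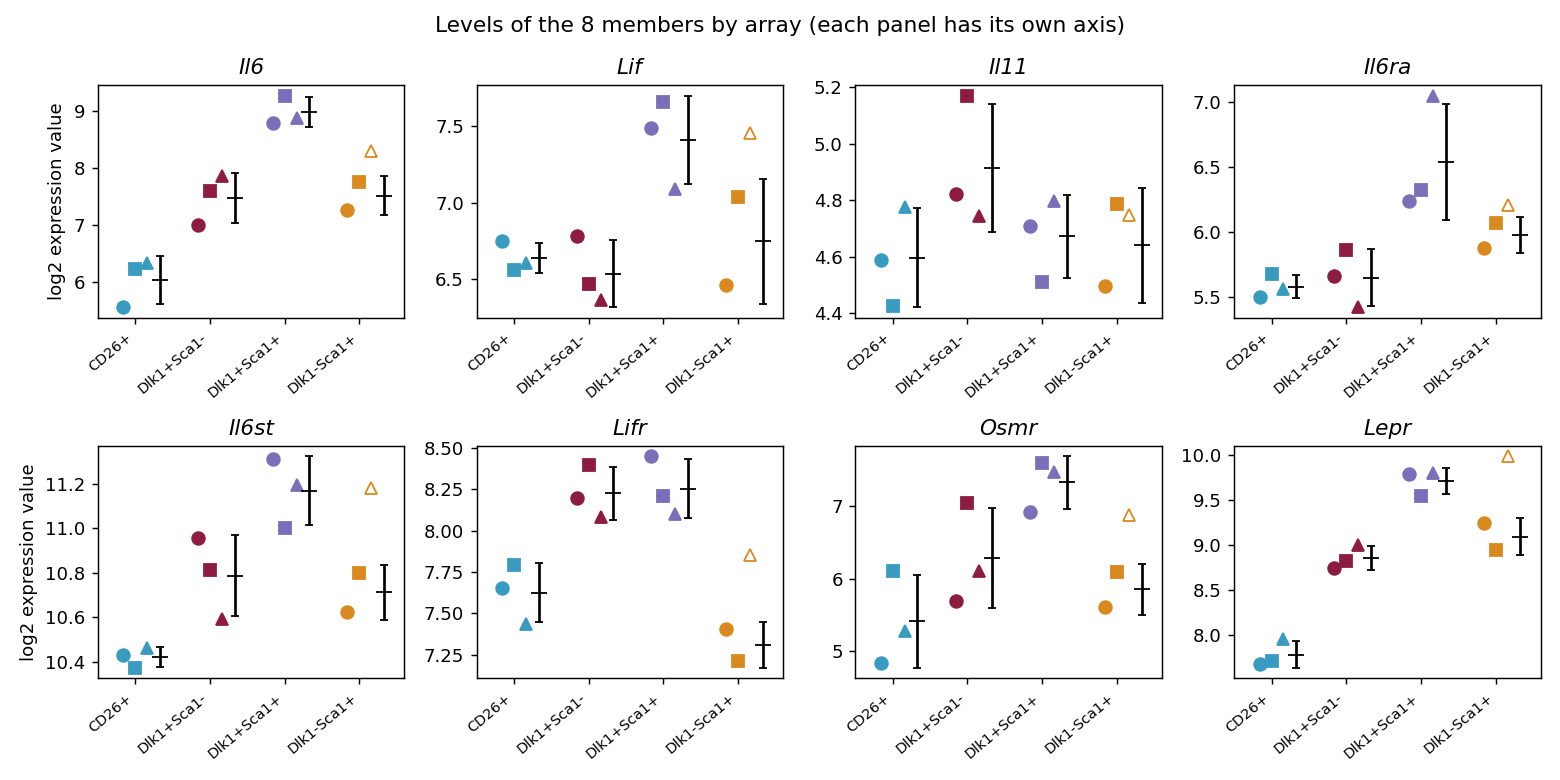
Log2 expression value of each gene (vertical axis, 1 scale per panel) on every array of the 4 populations, with circles, squares and triangles for replicates 1, 2 and 3, the open triangle for the Dlk1-Sca1+ array left out, and the mean ± SD of the fitted arrays in black. Il6 ran from 5.55 in CD26+ to 9.27 in Dlk1+Sca1+, and Lepr from 7.68 to 9.80 on the fitted arrays of the same populations.

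The array left out was above both other Dlk1-Sca1+ arrays in 7 of the 8 genes, all but Il11, and within or above the Dlk1+Sca1+ range in 4, Lif, Il11, Il6st and Lepr. For Il11 all 4 populations overlapped. The share of all genes with these positions was not counted. That array was left out partly for its closeness to Dlk1+Sca1+ over all genes, so these positions are not independent of that choice. Across the 11 fitted arrays, which share populations and so are not independent points, Il6 varied most like Lepr (Pearson r = 0.94), Osmr (0.88) and Il6st (0.84), and less like Lifr (0.52) and Il11 (0.14). Of all genes, those with the pattern most like Il6 were Fzd4 (r = 0.96), a Wnt receptor, Ccl7 (0.96), a monocyte chemokine, and Tppp3 (0.96). Those most like Lepr were Cxcl12 (0.98), a chemokine of stromal cells, Prr16 (0.97) and the collagen gene Col15a1 (0.97). Osmr was followed by Birc3 (0.96), the complement protease gene C1s1 (0.96) and Thbs3 (0.95), Il6st by Vcan (0.94), which encodes the matrix proteoglycan versican, Gstm2 (0.94) and Plcl1 (0.94), Il6ra by Adamts9 (0.93), Potegl (0.93) and Armcx6 (0.91), and Lifr by Uts2r (0.97), the imprinted gene Mest (0.96) and Igfbp6 (0.95).

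A list of 76 other genes of the pathway, of which 72 were measured, was set beside the family. It holds other ligands and receptors of the gp130 type, kinases and STAT factors, inhibitors, adaptors and known Stat3 targets. In CD26+ against Dlk1+Sca1+, 8 of the 72 were lower and none higher, 11.1% of the list against the 3.72% of all genes, with a median log2 difference of -0.12. Of these, 6 were Stat3 targets, of 32 on the list, whose median was -0.54. The acute-phase genes Saa3, Serpina3n and Lbp were lower in CD26+ by log2 differences of -2.32, -2.19 and -1.93 (adjusted p = 0.00262, 0.00593 and 0.000903, limma), the adhesion receptor gene Icam1 by -1.29 (adjusted p = 0.000742) and the chemokine gene Ccl2 by -1.20 (adjusted p = 0.0486). The CD26+ means of Saa3, Serpina3n and Lbp were 4.93, 5.54 and 5.60. These lie below or near the array medians of 5.38 to 5.51, where background compresses differences. Il31ra, whose product pairs with that of Osmr to bind interleukin-31, was lower by -1.31 (adjusted p = 0.00156), and the other 2 were Junb (-0.90, adjusted p = 0.0137) and the inhibitor Cish (-0.86, adjusted p = 0.0361), named here after their values were seen. Of these, the calls of Saa3, Serpina3n, Lbp, Icam1 and Il31ra held under all 20 alternatives, and that of Ccl2 held in 9. It was lost with all 12 arrays, without trend or robust fitting and whenever an array other than Dlk1+Sca1- replicate 1 or 2 was left out (adjusted p up to 0.167). The call of Junb was lost without CD26+ replicate 1 or 3 or Dlk1+Sca1+ replicate 2 or 3 (up to 0.0788), and that of Cish without Dlk1+Sca1+ replicate 1 or 3 or any array of CD26+ or Dlk1-Sca1+ (up to 0.143).

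In Dlk1+Sca1+ against Dlk1+Sca1-, 4 of the 72 genes were higher and none lower, 5.56% of the list against 1.24% of all genes. They were Saa3 (log2 difference 2.28 ± 0.35, adjusted p = 0.00836, limma), Serpina3n (1.85 ± 0.38, 0.0383), Lbp (1.59 ± 0.26, 0.00929) and Il31ra (1.08 ± 0.19, 0.0133). The mean of Saa3 in Dlk1+Sca1- was 4.97, also below the array medians. Against Dlk1+Sca1+, Dlk1-Sca1+ had lower Il31ra (-1.73, adjusted p = 0.00154), Lbp (-1.55, 0.0216) and Icam1 (-1.02, 0.0212) and higher Birc5 (1.03, 0.0346), a gene of dividing cells, 5.56% of the list against 1.19% of all genes. Among these, the calls of Saa3 and, against Dlk1-Sca1+, of Il31ra held under all 20 alternatives. That of Serpina3n was lost with all 12 arrays and without any array but CD26+ replicate 2 or 3 (adjusted p up to 0.136), and that of Birc5 with all 12 arrays, with the replicate block, with only the 2 populations compared fitted and without any array but CD26+ replicate 2 or Dlk1+Sca1- replicate 2 or 3 (up to 0.293). Against Dlk1+Sca1-, that of Il31ra was lost without Dlk1+Sca1- replicate 1 or Dlk1+Sca1+ replicate 1 or 3 and with only the 2 populations compared fitted (up to 0.0768), and that of Lbp with this last setting (0.0580). Against Dlk1-Sca1+, that of Lbp was lost without either array of Dlk1-Sca1+ or Dlk1+Sca1+ replicate 3 (up to 0.186), and that of Icam1 with all 12 arrays, with only the 2 populations compared fitted and without Dlk1-Sca1+ replicate 1 or Dlk1+Sca1+ replicate 2 or 3 (up to 0.208). By mean level Il31ra was at 7.43 in Dlk1+Sca1+, 6.35 in Dlk1+Sca1-, 6.12 in CD26+ and 5.70 in Dlk1-Sca1+. In the other 3 comparisons limma called none of the 72, with an unadjusted p under 0.05 for 12 (CD26+ against Dlk1+Sca1-), 14 (Dlk1-Sca1+ against Dlk1+Sca1-) and 5 (CD26+ against Dlk1-Sca1+). Many genes outside the list were under 0.05 as well. In CD26+ against Dlk1+Sca1-, Osmr had an unadjusted p of 0.0352 (limma) and ranked 2290th of 22180 genes. In CD26+ against Dlk1-Sca1+, Il6st had 0.0443 and ranked 1099th.

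Of the signalling core, none of the 6 Janus kinase and STAT genes measured was called in any comparison, with an unadjusted p under 0.05 for at most 2, and Stat3 had means from 8.85 to 9.05. Socs3, the inhibitor that Stat3 induces, was at 7.43 in Dlk1+Sca1+, 7.41 in Dlk1+Sca1-, 7.02 in CD26+ and 6.78 in Dlk1-Sca1+ and was not called in any comparison (adjusted p from 0.118 for Dlk1-Sca1+ against Dlk1+Sca1+ upwards, limma). The other ligands measured, Osm among them (means from 4.86 to 5.23), were not called either, with an unadjusted p under 0.05 for at most 1 of 7.

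**Figure D4:**
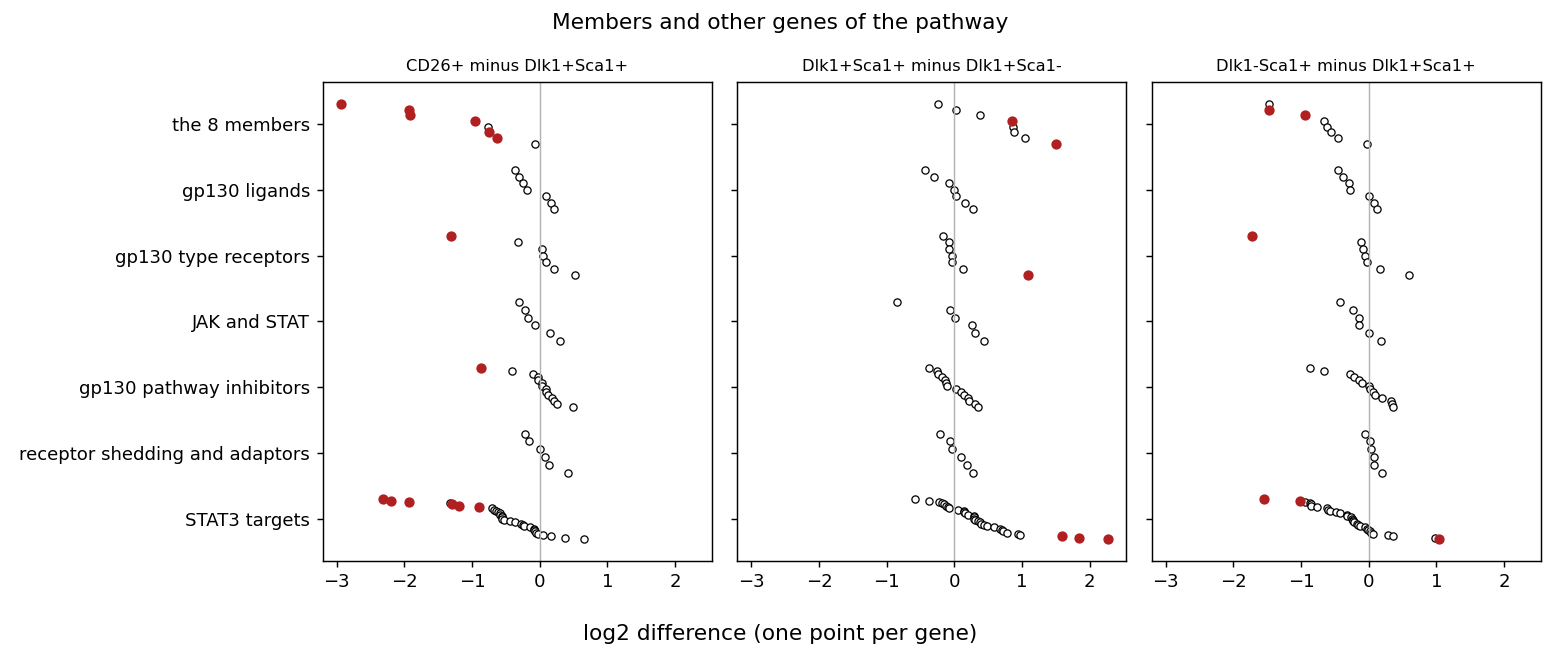
Log2 difference (horizontal axis) of each of the 8 genes and of each measured gene of the 6 pathway lists (1 point per gene, rows by role) in 3 comparisons, filled red where the adjusted p was under 0.05. In CD26+ minus Dlk1+Sca1+, 6 of the 8 genes and 6 of the 32 Stat3 targets are filled, all of them below 0.

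The leukocyte, immediate early and Stat3 target lists were also highest in Dlk1+Sca1+. The mean log2 level of 11 measured leukocyte markers was 5.60 to 5.77 there, against 4.82 to 5.06 on the other fitted arrays, and 9 of the 11 had their highest mean there. Mrc1 and Pf4, which mark tissue macrophages and platelets or macrophages, reached means of 6.19 and 6.40 against 4.73 to 4.93 and 3.80 to 4.12, while Ptprc, the gene of the pan-leukocyte marker CD45, lay between 3.07 and 3.57 on all fitted arrays. The mean level of 28 immediate early genes, which cell dissociation is known to induce and which include Atf3 and Ptgs2, was 9.76 to 10.04 in Dlk1+Sca1+, against 9.12 to 9.71 in Dlk1+Sca1-, 9.30 to 9.60 in Dlk1-Sca1+ and 9.18 to 9.54 in CD26+, and 26 of the 28 had their highest mean there. The Stat3 targets were at 7.69 to 7.73 in Dlk1+Sca1+ and at 7.09 to 7.54 elsewhere, and this list shares Fos, Junb, Myc, Klf6 and Ier3 with the immediate early list. The array left out was at 5.07 for the leukocyte markers, 9.61 for the immediate early genes and 7.66 for the Stat3 targets. Of the endothelial list (5.12 to 5.41 in Dlk1+Sca1+, 4.82 to 5.37 elsewhere), Tek, a receptor gene of endothelial cells, was higher in Dlk1+Sca1+ than in CD26+ and Dlk1+Sca1-, and no other of the 6 genes was called in either comparison. Against Dlk1+Sca1-, 3 of the 6 had positive differences, the median was -0.05, and the endothelial genes Kdr and Cdh5 were at -0.91 and -0.88 (adjusted p = 0.0963 and 0.439, limma). Of 6 pericyte and smooth muscle markers, Kcnj8 was lower in CD26+ than in Dlk1+Sca1+ (-1.62, adjusted p = 0.0324) and Abcc9 in Dlk1-Sca1+ below Dlk1+Sca1+ (-1.52, adjusted p = 0.0484), with list medians of 0.16 and -0.21. Differences were positive for 3 and 2 of the 6 in these comparisons, with Cspg4 at 0.73 in the first (adjusted p = 0.0972, limma). For Acta2 the difference of Dlk1+Sca1+ from Dlk1+Sca1- was -1.855 (adjusted p = 0.0606), and 2 of the 6 were positive there. The mean level of that list was 6.32 to 6.40 on the 2 fitted Dlk1-Sca1+ arrays, below Dlk1+Sca1+ (6.51 to 6.87) and Dlk1+Sca1- (6.60 to 7.48), and 6.23 to 6.85 in CD26+. The Dlk1-Sca1+ array left out was at 7.03 for that list, above every Dlk1+Sca1+ array. Of 6 skeletal muscle markers, Des was higher in CD26+ than in Dlk1+Sca1+ (0.86, adjusted p = 0.0269, limma). It was the only 1 of the 6 with a positive difference there, and the list median was -0.11. The list was at 5.771 to 5.894 in Dlk1-Sca1+, nearly meeting CD26+ (5.898 to 5.999). It was at 5.95 to 6.06 in Dlk1+Sca1- and 5.81 to 6.19 in Dlk1+Sca1+. The study reports muscle-related terms at the top for Dlk1-Sca1+, from its differentially expressed genes. The part of the cells and responses that these lists mark in the differences of the family was not tested.

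**Figure D5:**
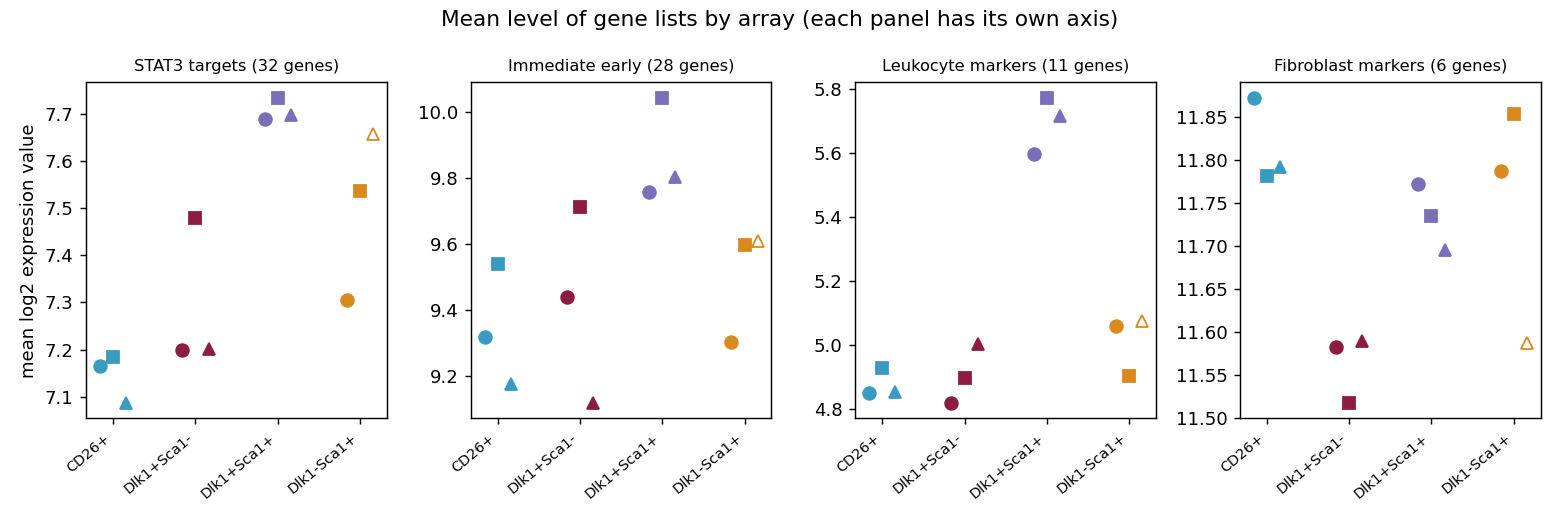
Mean log2 level of 4 gene lists on every array (vertical axes, 1 scale per panel), with symbols as for the plot of the 8 genes and the open triangle for the array left out. The 3 Dlk1+Sca1+ arrays lie above all other fitted arrays for the Stat3 targets, the immediate early genes and the leukocyte markers (5.60 to 5.77), but not for the fibroblast markers.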

How the data were processed

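RNA of sorted dermal fibroblasts was hybridised to Affymetrix Mouse Gene 2.0 ST arrays, 3 per population. The values deposited by the authors are log2 expression values per probe set, from 1.41 to 14.05, and mm10 is the build in the submitters' processing notes. Their summarisation and normalisation are not given in the sources used here. Array medians lay between 5.38 and 5.51, and no further normalisation was applied. No probe set has a background reading of its own, and precision is limited by how few arrays there are.

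Only the 23521 of 41345 probe sets that carry 1 gene symbol entered, and where a gene had more than 1 (1082 genes) its brightest on average stood for it, leaving 22180 genes. One mean per population was fitted to 11 arrays with limma 3.58.1 (R 4.3.3, statmod 1.5.0; lmFit, then eBayes with trend and robust fitting, two-sided, with 7 degrees of freedom left for the residuals). Benjamini-Hochberg adjustment was made over all genes in each of 6 pairwise comparisons and a gene was called under 0.05. The labels call the arrays biological replicates. The fit was tested on simulated data. Alternatives were the 12-array fit, quantile normalisation, median centring, a filter on the 40% dimmest genes, other variance, sample and weight settings, a replicate block, the mean of a gene's probe sets, and leaving out each array.

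The members and lists were chosen with earlier results of these data known. The named genes were the 8 members, the called pathway genes (at most 6 per comparison by size), the 3 genes most correlated with each called member (predicted genes, small RNAs and olfactory or vomeronasal receptors excepted), gate markers and defining members of marker lists. Socs3, Stat3, Lep, Osm and Krt14 were added after their values were seen. Samples carry the same replicate numbers across populations, but the numbers were not taken as pairs. Of the remaining marker lists, those of keratinocytes (mean level 5.19 to 6.22 on the fitted arrays) and of Schwann cells and melanocytes (5.44 to 6.11) held no called gene in any comparison, with an unadjusted p under 0.05 for at most 2 of 4 and 0 of 3 (limma). The keratinocyte gene Krt14 nevertheless averaged 6.80 in CD26+, with a highest value of 8.33, against 5.18 to 5.45 in Dlk1+Sca1-. Its log2 difference was 1.49 (adjusted p = 0.353, limma), and all 4 keratinocyte markers had positive differences in that comparison.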

Additional observations from a re-analysis of the deposited data

How the results depend on the processing

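Of the 14 called differences among 48 (8 genes in 6 comparisons), none reversed and 4 held under all 20 alternatives: Lepr in CD26+ against Dlk1+Sca1-, and Il6, Il6st and Lepr in CD26+ against Dlk1+Sca1+. The cause of the changes below was not tested. Where leaving out an array left Dlk1-Sca1+ with 1, it was assumed to vary like the other populations. Il11 was not tested under the filter on dim genes.

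Calls over the whole table moved as well. Under alternatives other than leaving out 1 array, they numbered 109 to 371 for CD26+ against Dlk1+Sca1- (243 in the main fit). They were 118 to 337 (274) for Dlk1+Sca1+ and 26 to 172 (131) for Dlk1-Sca1+, both against Dlk1+Sca1-. Against Dlk1+Sca1+ they were 689 to 991 (826) for CD26+ and 88 to 337 (263) for Dlk1-Sca1+. For CD26+ against Dlk1-Sca1+ they were 15 to 29 (19). With all 12 arrays, the number of the 8 genes called was 1 for Dlk1+Sca1+ against Dlk1+Sca1-, 0 for Dlk1-Sca1+ against Dlk1+Sca1-, 2 for CD26+ against Dlk1-Sca1+ and 0 for Dlk1-Sca1+ against Dlk1+Sca1+. It was 4 for Dlk1+Sca1+ against Dlk1+Sca1- without the 40% dimmest genes. For Dlk1-Sca1+ against Dlk1+Sca1- it was also 0 with median centring, without trend or robust fitting and with only the 2 populations compared. That last setting gave 1 for CD26+ against Dlk1+Sca1-, 1 for Dlk1-Sca1+ against Dlk1+Sca1+ and 4 for CD26+ against Dlk1+Sca1+, where Il6ra and Lifr were lost. Leaving out 1 array gave 1 to 2 for CD26+ and 0 to 2 for Dlk1+Sca1+, both against Dlk1+Sca1-, 0 to 1 for Dlk1-Sca1+ against Dlk1+Sca1-, 3 to 6 for CD26+ against Dlk1+Sca1+ (3 without CD26+ replicate 1), 0 to 1 for CD26+ against Dlk1-Sca1+ and 0 to 2 for Dlk1-Sca1+ against Dlk1+Sca1+.

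Whether the replicate numbers pair the samples was not settled. Deviations from the population means correlated above 0.1 in 2 of 15 same-numbered pairs and in 0 of 30 other pairs. The medians were 0.05 and -0.03. These pairs are not separate observations, because deviations from a mean cancel out within each population. Those of the 2 fitted Dlk1-Sca1+ arrays are mirror images, so opposite signs are partly forced. With the replicate block, 2 genes were called for CD26+ against Dlk1-Sca1+, Il6 being added (adjusted p = 0.0127, limma), and Osmr was added in Dlk1+Sca1+ against Dlk1+Sca1- (adjusted p = 0.0342) and in Dlk1-Sca1+ against Dlk1+Sca1+ (adjusted p = 0.0121).

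The following uncalled differences changed sign. Lifr in Dlk1+Sca1+ against Dlk1+Sca1- was -0.0235 after quantile normalisation and -0.0698 to 0.114 when 1 array was left out. In Dlk1-Sca1+ against Dlk1+Sca1-, Il6 was -0.0573 after quantile normalisation and -0.212 to 0.273 with 1 array left out, Lif was -0.0763 to 0.498, and Il6st was 0.0816 with all 12 arrays, 0.00507 with median centring and -0.171 to 0.0136 with 1 array left out. Il11 in Dlk1-Sca1+ against Dlk1+Sca1+ was 0.00445 with all 12 arrays, 0.00662 after quantile normalisation and -0.175 to 0.112 with 1 array left out. With 1 array left out, Il6ra in CD26+ against Dlk1+Sca1- was -0.182 to 0.0385, Il11 in CD26+ against Dlk1+Sca1+ was -0.165 to 0.0101, and in CD26+ against Dlk1-Sca1+ Lif was -0.396 to 0.179 and Il11 -0.188 to 0.0998.

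For the pathway list the same alternatives were added after seeing the data. In CD26+ against Dlk1+Sca1-, where none was called, 1 gene was called after quantile normalisation, without the dimmest genes, with array weights and with the replicate block, and 0 to 1 with 1 array left out. In Dlk1-Sca1+ against Dlk1+Sca1- it was 2 with all 12 arrays, 1 with median centring, 2 without the dimmest genes, 1 with array weights, 1 with the mean of probe sets and 0 to 2 with 1 array left out. In CD26+ against Dlk1-Sca1+ it was 1 with all 12 arrays, median centring, the dim filter and array weights, and 0 to 1 with 1 array left out. With only the 2 populations compared it was 2 for Dlk1+Sca1+ against Dlk1+Sca1- and 2 for Dlk1-Sca1+ against Dlk1+Sca1+, and 2 for the latter with all 12 arrays. Leaving out 1 array gave 2 to 4, 1 to 4 and, for CD26+ against Dlk1+Sca1+, 5 to 9.

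Over the whole table, the number of genes called in CD26+ against Dlk1+Sca1+ was 826, and 426 to 967 with 1 array left out. For Dlk1-Sca1+ against Dlk1+Sca1- it was 131, and 20 to 175, and for Dlk1-Sca1+ against Dlk1+Sca1+ 263, and 83 to 351. For CD26+ and Dlk1+Sca1+ against Dlk1+Sca1- it was 243, and 61 to 265, and 274, and 99 to 355, and for CD26+ against Dlk1-Sca1+ 19, and 8 to 25.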
